A study of Homo sapiens with 6 samples.

Results

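The older mammalian LINE-1 (L1) repeats were taken as all repeat subfamilies in the deposited tables whose name starts with L1M or HAL1. The rule gave 92 of the 1180 subfamilies counted. By name they fell into L1MA (12 subfamilies), L1MB (7), L1MC (11), L1MD (6), L1ME (27), other L1M such as L1M5 (25) and HAL1 (4). Their annotated copies covered 335.6 Mb of GRCh38, which is 21.8% of all annotated repeat bases, and they held 14.2% of the repeat counts.

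L1 elements are retrotransposons that copy themselves through RNA, using an RNA-binding protein and an endonuclease with reverse transcriptase that they encode. The L1M families spread in mammalian ancestors and their copies are now broken fragments that no longer move, with L1MA the youngest and L1ME among the oldest of the lettered families. HAL1 elements are L1 relatives that kept the first open reading frame and lost the second. Many such fragments lie in introns and are transcribed as part of the host gene, and a subfamily count does not separate that RNA from RNA that starts in the element.

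The study sequenced total RNA of HEK293T, an established human embryonic kidney line, to see what CRISPR activation aimed at the SVA_D repeats does. The guide group (labelled CRISPRa) was transfected with dCas9-VP64, rtTA and an SVAD sgRNA. The control group (labelled WT) received dCas9-VP64 and rtTA without the guide, so both groups carried the activator. Each group held 3 libraries, whose titles name SunTag, and no label states that they were independent cultures. The p-values therefore reflect library-to-library variation only, which may be technical.

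Library depth was 16557854 to 22651168 protein-coding gene counts and 1292769 to 1699189 repeat counts, of which 188511 to 253558 fell on the older L1 subfamilies. The targeted SVA_D stood at 161, 176 and 192 CPM (counts per 1e+06 gene counts) in guide replicates 1, 2 and 3 and at 149, 149.7 and 147 CPM without the guide, with no overlap. All 6 kidney-line markers checked were detected, and the 9 markers of blood, liver, endothelium and fibroblasts did not exceed 2.01 CPM. The alignment names in the file headers follow another scheme for replicate 3 of both groups than for replicates 1 and 2, and those 2 libraries stood apart, so the results are described across that divide where it changes them. CPM is relative to the gene counts after TMM scaling (trimmed mean of M-values), and the second scale is the share of all repeat counts.

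Levels differed more between subfamilies than between libraries. The mean over 6 libraries ran from 0.435 CPM for L1M2b to 919 CPM for L1MB2, with a median of 66.9 CPM. Pooled over the libraries, L1ME held 32.1% of the older L1 counts, L1MB 19.1%, other L1M 16.8%, L1MC 15.2%, L1MA 6.18%, HAL1 6.10% and L1MD 4.49%. The 5 subfamilies with the most counts were L1MB2, L1M5, L1ME4a, HAL1 and L1MC4, which together held 29.1%. These 5 led in every library, with L1MB2 first in replicates 1 and 2 and L1M5 first in both replicate 3 libraries. The order of families also turned across that divide: L1MB held a mean of 20.3% of the older L1 counts in replicates 1 and 2 and other L1M 16.2%, against 16.6% and 18.2% in replicate 3. L1MA and HAL1 likewise went from 6.26% and 5.74% to 6.04% and 6.87%. Level followed the amount of annotated sequence: across the 92 subfamilies, which share the same libraries, log2 annotated Mb and log2 mean CPM had Pearson's r = 0.82 and Spearman's rho = 0.79, given as a description.

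Per Mb of annotated copies, HAL1 (51.1 CPM per Mb) and L1MB (50.7) stood highest and L1MA (10.9) lowest. L1ME stood at 34.3 CPM per Mb, L1MC at 31.9, other L1M at 31.4 and L1MD at 25.4. These values pool each family. The median subfamily stood at 26.7 in L1ME, 24.3 in L1MC, 16.5 in other L1M and 27.7 in L1MD. The order of these 4 families thus depended on the measure, while HAL1 (39.1) stayed highest and L1MA (10.9) lowest by median. L1MA was below L1MD in 6 of 6 libraries and above the younger L1 group (39 primate subfamilies named L1P or L1HS, 7.46 CPM per Mb) in 6 of 6. The place of L1MB rested on a single subfamily: without L1MB2 the family stood at 30.6 CPM per Mb. L1MB lay above HAL1 in 4 of 6 libraries, the 4 of replicates 1 and 2, and below it in both replicate 3 libraries, so the order of these 2 families was not stable. L1MC lay above other L1M in 4 of 6 libraries as well. Repeats of all kinds averaged 48.0 CPM per Mb, and the L2 and MIR group, which is also ancient, 74.2.

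Within families the spread was wide. L1M6B reached 599 CPM per Mb over only 0.122 Mb of annotation, L1MB2 240.0, L1M3a 166 and L1M4c 129. L1ME4c (94.8) and L1ME4a (75.4) led L1ME, whose lowest subfamily was L1MEi at 13.2. L1MA6 led L1MA at 23.4, and L1MA2 was lowest there at 4.74. L1MC5a led L1MC at 58.4 and L1MCb closed it at 4.17. The 4 HAL1 subfamilies lay close together, from 32.5 for HAL1b to 58.2 for HAL1. In all, 86 of the 92 subfamilies lay above the younger L1 median of 6.72 CPM per Mb, and 51 lay above the highest younger L1 value of 20.2. Multi-mapping pairs were counted at each of their alignments, which can raise subfamilies with many near-identical copies, and its part in these levels was not tested.

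**Figure D1:**
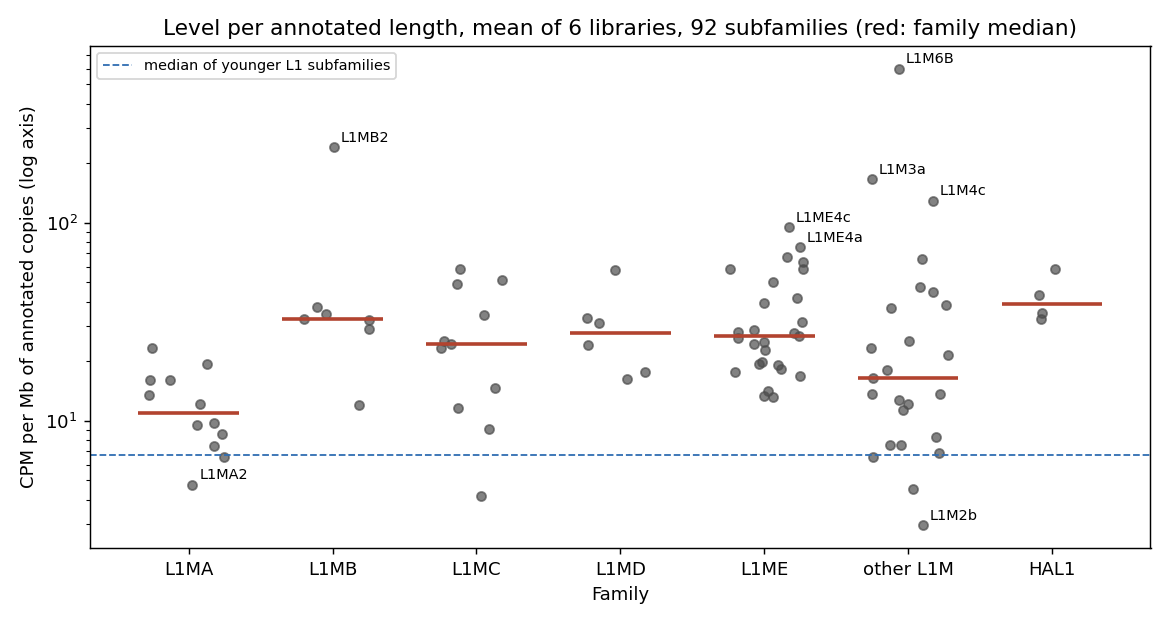
Mean level over the 6 libraries per Mb of annotated copies (vertical log axis) for each of the 92 subfamilies by family, with family medians as red lines and the younger L1 median of 6.72 as a dashed line. L1MA has the lowest family median (10.9), and L1M6B (599) and L1MB2 (240.0) stand far above the others.

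With the SVA_D guide, no older L1 family stood apart from its control. The summed level was 10151, 11730 and 8591 CPM in guide replicates 1, 2 and 3, and 12083, 11922 and 8702 CPM without the guide. The lowest value of each group was its replicate 3, and the groups overlapped. The means were 10157 ± 1569 and 10902 ± 1907 CPM (SD, n = 3 each), a log2 ratio of -0.10. Leaving out guide replicate 3 turned that ratio to 0.0050, and leaving out the replicate 3 library without the guide took it to -0.24. As a share of repeat counts the subfamilies held 13.9%, 14.6% and 13.5% with the guide and 14.9%, 14.6% and 13.6% without it, a log2 ratio of -0.04 with overlap again. The summed CPM of each of the 7 families overlapped between groups too, with log2 ratios from -0.15 (L1MB) to -0.07 (other L1M).

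**Figure D2:**
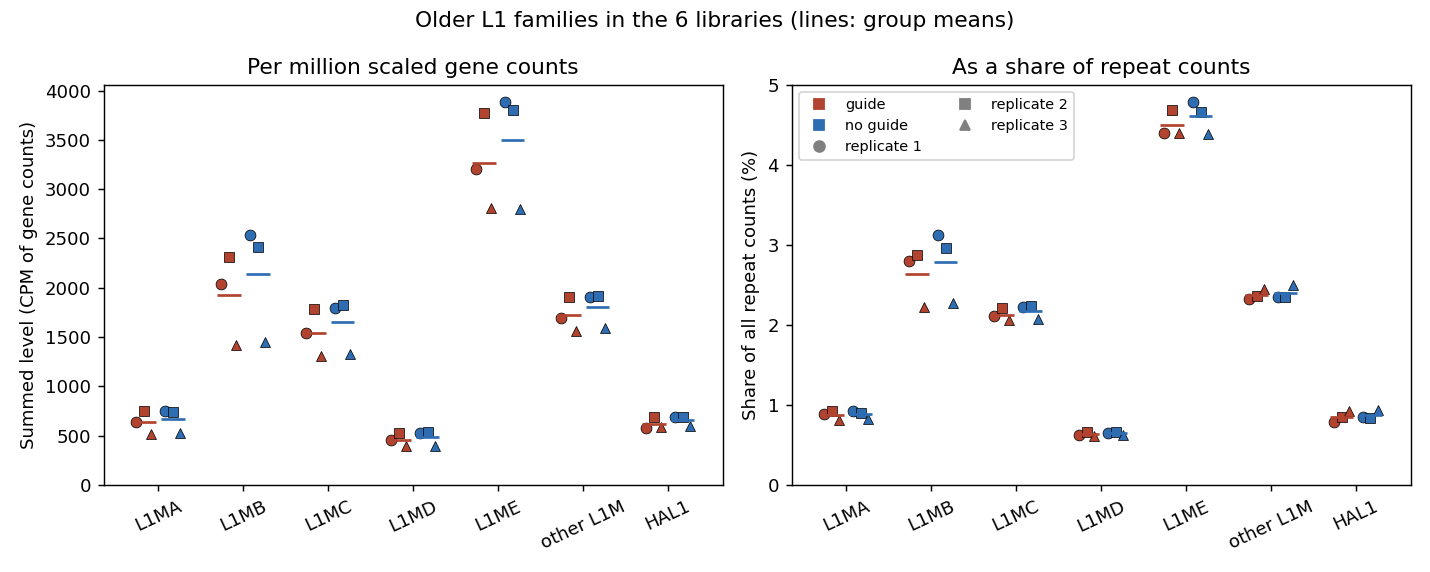
Summed level of each family in every library, in CPM of gene counts on the left and as a percent of all repeat counts on the right; colour marks the group, shape the replicate, and lines the group means (n = 3). Guide and no-guide values overlap in every family, while the triangles of replicate 3 are lowest in CPM in all families but HAL1.

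Tested subfamily by subfamily, the guide comparison gave no call. Of the 91 subfamilies that passed the count filter, edgeR's quasi-likelihood test called 0 higher and 0 lower (background 0% in either direction, 0 of 999 subfamilies). None of the 91 had an unadjusted p under 0.05, against 12 of all 999. DESeq2 and limma-voom also called 0 of the older L1 subfamilies. The lowest adjusted p among the 91 was 0.999. L1M2b, with 2, 21 and 6 counts in the guide libraries and 9, 7 and 2 in the others, did not pass the filter.

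The fitted log2 differences were small and mostly on the lower side. They lay below 0 for 82 of 91 older L1 subfamilies (90.1%) and for 676 of all 999 (67.7%), with medians of -0.09 and -0.06. Of the 91, 84 lay within 0.2 of 0, against a median standard error (SE) of 0.18. Family medians ran from -0.07 (other L1M) to -0.13 (L1MB). Scaled to the repeat counts instead, 69 of the 91 lay below 0 and the medians were -0.03 and -0.0007. Leaving out guide replicate 3 took the median of the 91 to 0.01 with 39 below 0. With each of the other 5 libraries left out, 61 to 84 lay below 0 and the median was -0.23 to -0.02. These fits held no term for replicate 3, and without it the side on which the 91 lay depended on guide replicate 3. With replicate 3 as a term 82 lay below 0 (median -0.09), and with replicates 1 and 2 alone 79 (median -0.12). The medians of all tested subfamilies in these 2 settings were -0.06 and -0.08.

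By number, the differences lay mainly in the replicate 1 pair. Replicates 1 and 2 were not told apart by number, so a pair cannot be told from a single low library here. Guide replicate 1 had a summed level of 10151 CPM. Guide replicate 2 had 11730 CPM, and replicates 1 and 2 without the guide had 12083 and 11922 CPM. Guide over no guide, replicate 1 lay below 0 for 81 of 92 subfamilies (70.8% of all 999 tested). Its median log2 ratio was -0.24 (all tested subfamilies: -0.15). Replicate 2 had 58 of 92 below 0 (52.1% of all tested) with a median of -0.01. Replicate 3 had 52 of 92 below 0 (50.9% of all tested) with a median of -0.02. The median of all tested subfamilies was -0.01 in replicate 2 and in replicate 3. The same held within families: L1MB had a median of -0.32 in replicate 1, -0.04 in replicate 2 and 0.01 in replicate 3. L1ME had -0.24, -0.02 and -0.02.

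**Figure D3:**
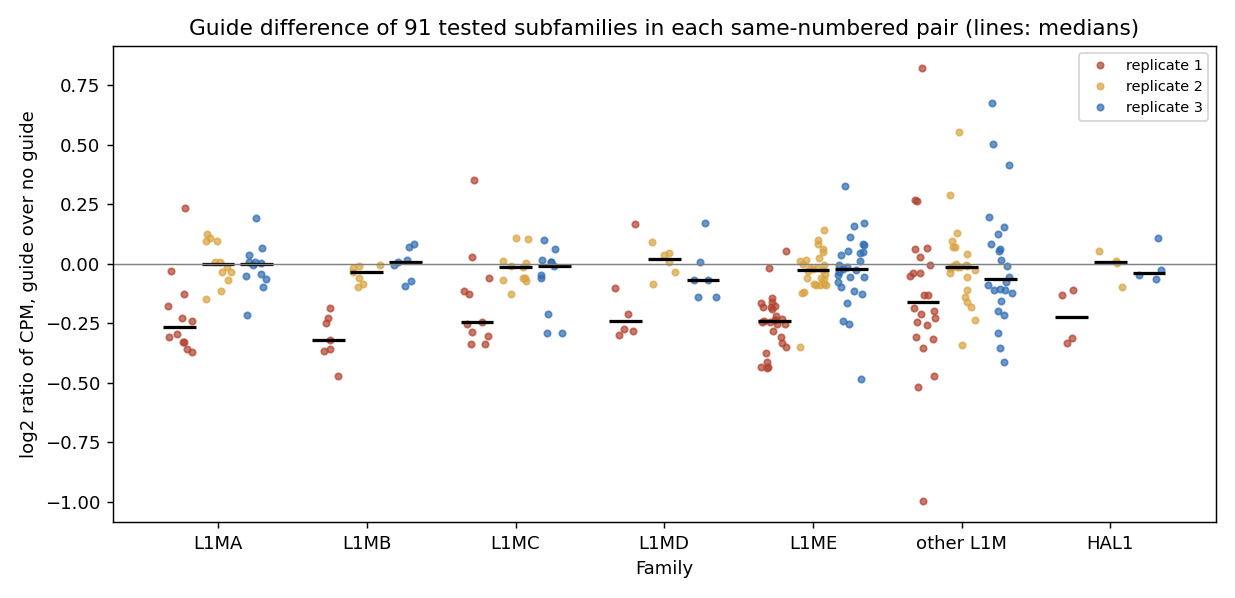
Log2 ratio of CPM, guide over no guide, in each same-numbered pair of libraries for the 91 tested subfamilies by family, with the medians as black lines. The replicate 1 (red) medians lie below 0 in all families (-0.32 in L1MB), with single subfamilies above 0, while the medians of replicates 2 and 3 lie nearer 0.

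Single subfamilies at the edges of the guide comparison had few counts or overlapping groups. L1M2a1 had the highest fold change (log2 0.45 ± 0.28 SE), at 2.45, 1.56 and 2.12 CPM with the guide and 1.38, 1.83 and 1.33 CPM without it. L1M3b had the lowest (-0.41 ± 0.35 SE), at 4.31, 6.35 and 3.27 CPM with the guide and 8.58, 6.84 and 2.99 CPM without it. Both pairs of groups overlapped. L1M, a short entry of 0.0778 Mb, was the only older L1 whose 3 guide values (5.43, 5.60 and 6.18 CPM) all lay above the 3 control values (4.53, 4.58 and 4.36 CPM), where 1.3% of all tested subfamilies did so. Its log2 fold change of 0.35 ± 0.18 SE had an unadjusted p of 0.0743. L1M6, named after its values were seen, was the only one with all guide values (34.9, 35.5 and 29.9 CPM) below the controls (35.8, 35.9 and 38.2 CPM), against 3.2% of all. On the share scale, L1M was the only one wholly above (3.5% of all), and L1MA2, L1MC1 and L1MEc were wholly below (2.6% of all).

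L1MB2, the subfamily with the most counts, stood at 980.1, 1047 and 534 CPM with the guide and 1264, 1120.3 and 569 CPM without it. Each guide value lay below the control of the same number, yet the groups overlapped because both replicate 3 libraries were low. Its log2 fold change was -0.21 ± 0.30 SE, unadjusted p = 0.501 (edgeR). L1M5 had a difference of -0.05 ± 0.16 SE, and it was 0.01 when scaled to the repeat counts. L1ME4a had -0.10 ± 0.18 SE and HAL1 -0.11 ± 0.15 SE.

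A model with replicate 3 as a term brought the median SE of the 91 down to 0.09. It called 0 of the 91 older L1 subfamilies, and over all 999 it called 0.1% higher and 0% lower. In that fit L1MB2 stood at -0.19 with an unadjusted p of 0.0129, and L1M at 0.36 with an unadjusted p of 0.043; neither passed the adjustment (lowest adjusted p among the 91, 0.957). With replicates 1 and 2 alone, 0 of the 91 were called, and over all 991 tested 1 was called higher and 0 lower (edgeR). In that fit 7 of the 91 were lower at an unadjusted p under 0.05 (edgeR). The share of all subfamilies at that cut-off was not counted, so the 7 cannot be read as particular to the older L1.

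The 2 replicate 3 libraries held less older L1 RNA per gene count than the other 4. With the group kept in the model, edgeR's quasi-likelihood test with Benjamini-Hochberg adjustment called 64 of 91 subfamilies lower and 2 higher (background 31.6% lower and 2.7% higher of 999). Without the replicate 3 library of the control group, 30 were lower and 0 higher (background 13.5% lower). The other libraries left out in turn gave 55 to 71 lower (background 23.4% to 38.3%). The median log2 fold change was -0.39 for the older L1 subfamilies and -0.23 for all tested. In 67 of 92 both replicate 3 values lay below the other 4 in CPM (43.3% of all tested), and in 2 both lay above (5.71%).

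The size of this drop depended on the scale. Scaled to the repeat counts, 38 of 91 were called lower and 5 higher (background 10.2% lower and 10.5% higher of 993), and all 38 were among the 64. By plain gene totals 35 were lower and 3 higher (background 10.7% lower and 7.11% higher), and by plain repeat totals 26 were lower and 7 higher (background 6.98% lower and 15.6% higher). The median of all tested subfamilies moved from -0.23 to -0.03, 0.02 and 0.08 with gene totals, repeat-based TMM and repeat totals. Relative to that median the older L1 subfamilies stood at -0.16 by gene-based TMM and at -0.17 in each of the other 3 scalings; a change of scale moves all subfamilies nearly alike, so this gap is all but fixed and is no sign of stability. On the share scale, 38 of 92 had both replicate 3 values below the rest (14.5% of all) and 13 had both above (27.9%).

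Families differed in how far they lay from the other repeats in replicate 3, though the difference between families was not tested. Called lower on the gene scale were 7 of 7 L1MB, 11 of 12 L1MA, 23 of 27 L1ME, 9 of 11 L1MC, 4 of 6 L1MD, 9 of 24 other L1M and 1 of 4 HAL1 (HAL1M8). On the repeat scale they were 6 of 7, 6 of 12, 11 of 27, 6 of 11, 3 of 6, 6 of 24 and 0 of 4. Relative to the median of all repeats, the family medians were -0.22 for L1MA and L1MB, -0.21 for L1MD, -0.18 for L1ME, -0.17 for L1MC, -0.03 for other L1M and 0.14 for HAL1. Younger L1 stood at -0.09 by the same measure, with 21 of 34 called lower on the gene scale and 3 of 34 on the repeat scale. L2 and MIR stood at -0.06, with 8 of 12 and 1 of 12. The subfamilies named Alu stood at -0.12, with 34 of 46 (73.9%) and 16 of 46 (34.8%). These shares were near those of the older L1 as a whole, at 70.3% and 41.8%, so a marked fall was not particular to the older L1. Over all tested subfamilies 31.6% were called lower on the gene scale and 10.2% on the repeat scale.

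**Figure D4:**
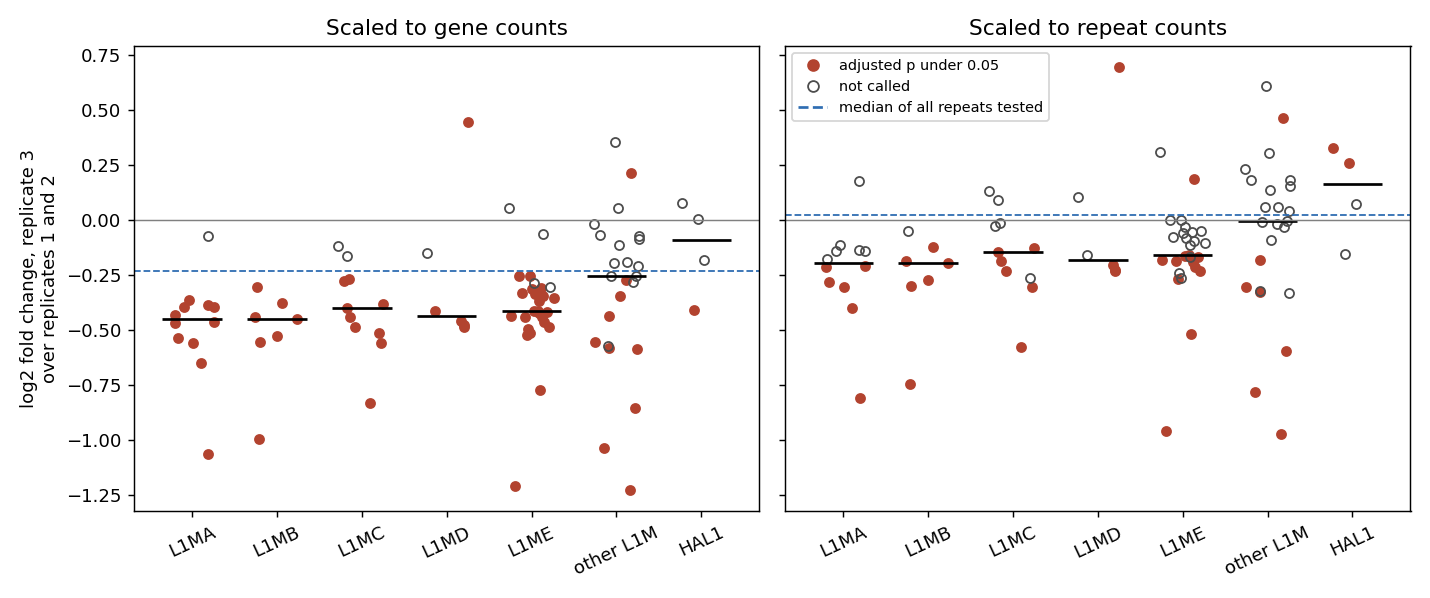
Log2 fold change of replicate 3 over replicates 1 and 2 for the 91 tested subfamilies by family, scaled to gene counts (left) and to repeat counts (right); filled points have an adjusted p under 0.05, black lines are family medians and the dashed line is the median of all repeats tested (-0.23 and 0.02). The medians of L1MA to L1ME lie below the dashed line on both scales and that of HAL1 above it, while single subfamilies such as L1MDb and HAL1M8 lie on the other side.

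L1MB fell the most as a family. Its summed level was 2038, 2312 and 1420 CPM in guide replicates 1, 2 and 3 and 2535, 2416 and 1454 CPM in the controls, a log2 ratio of -0.69 for replicate 3 over the rest. L1MB2 made up 62.0% of that drop and 19.5% of the drop of all older L1 counts. Without it L1MB stood at -0.47, close to L1MA at -0.46. HAL1 as a family went from 572, 685 and 691 and 685 CPM in replicates 1 and 2 to 588 and 599.8 CPM in replicate 3, a log2 ratio of -0.15. Its share of repeat counts was higher in replicate 3 (log2 0.16), so its direction changed with the scale. The same was true of other L1M (-0.24 in CPM and 0.07 in share).

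L1MB2 had the smallest adjusted p (log2 -0.99 ± 0.08 SE, adjusted p = 3.32e-09, edgeR), at 534 and 569 CPM in replicate 3 and 1103 ± 122 CPM elsewhere (SD, n = 4). L1MA5A stood at 38.0, 43.8 and 20.7 CPM with the guide and 47.0, 44.2 and 20.6 CPM without it. Its log2 fold change was -1.06 ± 0.11 SE (adjusted p = 2.95e-07, edgeR), while the other 11 L1MA lay between -0.65 (L1MA1) and -0.07 (L1MA6). L1MC2 stood at 85.5, 97.8 and 53.2 CPM with the guide and 92.5, 102.7 and 53.0 CPM without it (log2 -0.83 ± 0.09 SE). L1M2a stood at 19.7, 27.6 and 11.7 CPM with the guide and 28.3, 31.3 and 10.995 CPM without it (log2 -1.22 ± 0.14 SE). In these 4 subfamilies both replicate 3 values lay below all other values on both scales, and each was also called lower on the repeat scale (log2 -0.58 to -0.97). L1MEa was as far down (-1.21 ± 0.30 SE) at only 0.941 to 2.93 CPM, and lost its call without the replicate 3 control library (adjusted p = 0.133, edgeR).

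Against this, 2 subfamilies rose in replicate 3. L1MDb stood at 28.8, 27.4 and 34.8 CPM with the guide and 25.6, 25.7 and 38.3 CPM without it (log2 0.45 ± 0.10 SE, adjusted p = 0.00194, edgeR). L1M4c stood at 247, 258 and 284 CPM with the guide and 254, 259 and 307 CPM without it (log2 0.21 ± 0.07 SE, adjusted p = 0.0284, edgeR). Both replicate 3 values were the highest on either scale. The call of L1MDb was lost without the replicate 3 control library (log2 0.31, adjusted p = 0.1703), and that of L1M4c in 4 of the 6 leave-one-out fits (log2 0.17 to 0.26, adjusted p = 0.127 to 0.427, edgeR). On the repeat scale HAL1b (0.33), HAL1ME (0.26) and L1ME3D (0.19) were also called higher, where their gene-scale values were 0.08, 0.01 and -0.06 and not called.

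**Figure D5:**
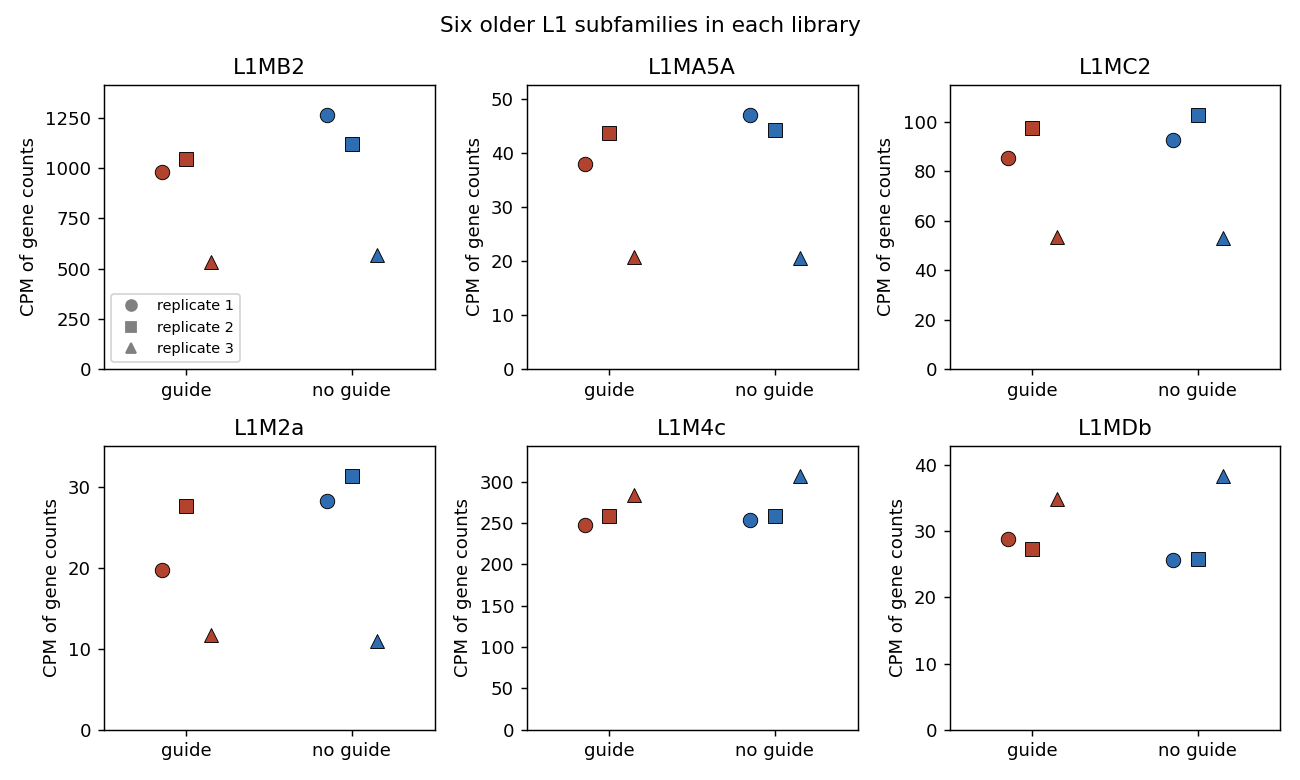
CPM of gene counts in each library for 4 subfamilies that were lower (L1MB2, L1MA5A, L1MC2, L1M2a) and 2 that were higher (L1M4c, L1MDb) in replicate 3; colour marks the group and shape the replicate. In every panel the replicate 3 triangles of both groups lie together, apart from the circles and squares, as for L1MB2 at 534 and 569 CPM.

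The change in replicate 3 had the same direction in both groups for most subfamilies. Taken within the guide and the control libraries separately, the differences had the same sign in 82 of 92 subfamilies, below 0 in 79 and above 0 in 3. The share over all subfamilies was not counted for this measure. In the fit over both groups, 84 of the 91 and 75.7% of all 999 lay below 0, so a shared fall was common among repeats. Across the 91 tested, which share the same libraries, Pearson's r was 0.75 and Spearman's rho 0.67, given as a description. The interaction of guide and replicate 3 was fitted with 1 replicate 3 library in each group, assumed to vary like the others. Its tests could therefore not settle whether the replicate 3 change was the same in both groups, and only effect sizes are given. The interaction log2 values had a median of 0.10 over the 91 and 0.07 over all 999. They ran from -0.66 for L1M3d to 0.68 for L1M3b among the 91. L1MA6 had -0.40, the lowest in L1MA. It stood at 85.5, 82.3 and 69.4 CPM in guide replicates 1, 2 and 3 and 72.7, 75.4 and 80.6 CPM in the controls. Over the 91 subfamilies the replicate 3 difference had r = -0.05 with log2 mean CPM and r = 0.07 with log2 CPM per Mb, as a description. Whether culture, library preparation or sequencing differed for replicate 3 cannot be told apart here.

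Genes whose proteins act on L1 sequence showed no call with the guide. The HUSH complex (TASOR, MPHOSPH8 and PPHLN1) silences L1 copies together with MORC2, SETDB1, its partner ATF7IP, and TRIM28, while MATR3, PTBP1, PTBP2, HNRNPM, SUGP2, SAFB, SAFB2, SLTM and HNRNPU were listed as proteins that bind L1 sequence in introns or nuclear RNA. Of these 16 genes 14 were tested and 0 were called (background 0% of 13007 genes, edgeR; lowest adjusted p 0.99999). MATR3 and SLTM were listed at 0 in all 6 libraries and were not tested. Whether these zeros reflect the cells or the way pairs were counted was not tested, so they do not show that the genes were silent. The largest guide difference was -0.14 ± 0.12 SE for ATF7IP, at 42.8, 52.3 and 43.4 CPM with the guide and 49.0, 51.8 and 52.1 CPM without it.

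In replicate 3, where 27.1% of all genes were called higher and 26.6% lower with TMM, 6 of the 14 fell and 1 rose. HNRNPU, a nuclear RNA-binding protein, fell the most: it stood at 1676, 1764 and 915 CPM with the guide and 1800.1, 1895 and 912 CPM without it (log2 -0.96 ± 0.09 SE). SETDB1, the histone H3 lysine methyltransferase of this silencing pathway, had -0.55 ± 0.10 SE, TRIM28 -0.51 ± 0.09 SE, PTBP1 -0.35 ± 0.08 SE, TASOR -0.31 ± 0.09 SE and MORC2 -0.20 ± 0.08 SE. SUGP2 rose (0.29 ± 0.07 SE). These calls depended on the scale: by plain gene totals, a setting added after seeing the data, the median of all genes was 0.20 with 40.8% higher and 13.6% lower. HNRNPU (-0.77), SETDB1 (-0.36) and TRIM28 (-0.32) were then called lower, SUGP2 (0.48) and HNRNPM (0.21) higher, and TASOR (-0.12), PTBP1 (-0.15) and MORC2 (-0.01) were not called. These genes moved beside the older L1 counts in the same 2 libraries, and their part in that change was not tested.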

How the data were processed

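Per the submitters' processing notes, FastQC 0.11.8, STAR 2.7.0e and featureCounts 2.0.0 were used on GRCh38 and hg38. All deposited values used are raw counts. Per the file headers, read pairs were counted without strand over whole bodies of Ensembl protein-coding genes without multi-mapping pairs, and over repeat annotations summed by subfamily with each alignment of multi-mapping pairs counted. Repeat lengths are the annotated bases in the same files.

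From the raw counts, edgeR 4.0.16 in R 4.3.3 (glmQLFit, glmQLFTest, filterByExpr with a minimum count of 10) tested all subfamilies, with library sizes from the gene table scaled by TMM, Benjamini-Hochberg adjustment over all tested and a threshold of 0.05. DESeq2 1.42.0, limma-voom (limma 3.58.1), other scalings and filters, a replicate block, and each library left out were alternatives. Script output was tested on simulated data. A floor of 3 counts corresponds to 0.128 to 0.187 CPM, for counting error only.

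Named subfamilies are those of highest level in each family, the 4 smallest p-values on each side and the extreme fold changes of each family in both contrasts, and those that failed the filter; the highest per Mb are named as a description. The subfamilies, gene lists and tests were chosen with earlier results of these data known. Summed values have no p, since their members were chosen.

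Same-numbered libraries deviated together (r = 0.11, 0.28 and 0.51 over subfamilies; 0.55, 0.67 and 0.86 over genes), which meets the rule used for pairing (every r over 0.1). Replicates 1 and 2 were not told apart by number: guide 1 with control 2 had 0.21 and 0.62, and guide 2 with control 1 had 0.32 and 0.67. Replicate 3 correlated above 0 only with replicate 3. No consensus or copy sequence of these subfamilies was used here.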

Additional observations from a re-analysis of the deposited data

How the results depend on the processing

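In the guide comparison 0 older L1 subfamilies were called in either direction under every alternative run, while over all subfamilies 0 or 1 was called; the replicate block, which pairs the libraries, also gave 0 and changed no call of the L1-associated genes (0 of 14 tested). For replicate 3, the count called lower was 64, and 38 with repeat-based TMM, 35 with gene totals and 26 with repeat totals; the count called higher was 2, and 5 with repeat-based TMM and 7 with repeat totals. Leaving out 1 library gave 30 to 71 lower and 0 to 2 higher. DESeq2 called 66 lower (26.5% of all subfamilies), and no filter (27.7%), a minimum count of 50 (39.2%), limma-voom (31.5%) and the fit without the guide term (32.0%) 64 each. The summed log2 ratios moved by less than the spread between replicates (-0.24 to 0.0050 in CPM and -0.08 to -0.01 in share with 1 library left out). That spread (pooled SD of 0.25 and 0.06 in log2) includes the gap between replicate 3 and the other libraries, so staying within it is no sign of stability. Without L1MB2, an alternative chosen after seeing the data, the summed log2 ratios were -0.09 and -0.03.

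Some single values near 0 turned direction, and the cause was not tested. The guide fits with 1 library left out held no replicate 3 term. With that term and all 6 libraries, the subfamilies of the next sentence kept the side of the main fit. They ran from -0.24 for L1MEa and -0.19 for L1MB2 to 0.070 for L1MEg2. With 1 library left out, the guide difference ran from -0.27 to 0.0042 for L1MA9, -0.48 to 0.042 for L1MB2, -0.26 to 0.0061 for L1MC4, -0.24 to 0.0095 for L1ME4a, -0.16 to 0.011 for L1M5, -0.0072 to 0.14 for L1MA6, -0.20 to 0.033 for L1MB8, -0.083 to 0.14 for L1MCb, -0.092 to 0.24 for L1MDb, -0.66 to 0.028 for L1MEa and -0.020 to 0.22 for L1MEg2. The replicate 3 difference ran from -0.27 to 0.12 for L1MA6, -0.36 to 0.11 for L1MCb and -0.15 to 0.25 for L1MEg2. In the guide comparison L1M5 was 0.011 with repeat-based TMM and 0.012 with repeat totals, and L1MEg2 was -0.073 in replicates 1 and 2 alone. In replicate 3, with repeat-based TMM, gene totals and repeat totals, HAL1 was 0.072, 0.013 and 0.13, L1MA6 0.18, 0.12 and 0.24, and L1MCb 0.13, 0.080 and 0.19; with repeat totals L1M5 was 0.036 and L1MB1 0.0068. Subfamilies with few counts, such as L1MEa, have wide errors.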
